A study of Mus musculus with 4 samples.

Results

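Expression of 8 enzymes that break down tryptophan and other amino acids was compared between CD8α+ and CD8α− dendritic cells of the mouse spleen: Ido1, Afmid, Kmo, Kynu, Haao, Il4i1, Arg1 and Arg2. The 8 enzymes, of 18193 genes with a probe set of their own, were read by 13 of 45037 probe sets other than controls, each probe set chosen because the platform annotation gives it 1 of these symbols alone. Of the 13, 9 were bright enough to be tested, and they stand for 6 of the 8 enzymes. Both populations were taken from C57BL/6 spleens, with no treatment named in the labels. Their RNA was hybridised to Affymetrix Mouse Genome 430 2.0 arrays, 2 for the CD8α+ cells and 2 for the CD8α− cells. The age of the mice, the isolation method and whether the arrays came from separate animals are not given in the sources used here, so the p-values below rest on array-to-array spread that could be technical alone.

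Tryptophan is degraded mainly along the kynurenine pathway. Ido1 opens the indole ring, the formamidase Afmid releases kynurenine, the monooxygenase Kmo hydroxylates it, the hydrolase Kynu cleaves it towards hydroxyanthranilate, and the dioxygenase Haao carries that product on towards quinolinate and NAD. Tryptophan loss and kynurenines are known to restrain T cells, and in mouse spleen Ido1-dependent tolerance has been studied above all in CD8α+ dendritic cells. Il4i1 is a secreted oxidase of aromatic amino acids, and the arginases Arg1, in the cytosol, and Arg2, in mitochondria, split arginine into ornithine and urea.

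The promoter windows of Kmo and Haao are shown from RefSeq (GRCm38.p6). Each runs from 250 bases before the start used for that window to 50 after it. The CD8α− arrays lay far apart for Kmo, and Haao held the only motif match. Kmo lies at chr1:175631943-175632242 on the plus strand and Haao at chr17:83846741-83847040 on the minus strand, each printed 5′ to 3′ on its own strand.
Kmo: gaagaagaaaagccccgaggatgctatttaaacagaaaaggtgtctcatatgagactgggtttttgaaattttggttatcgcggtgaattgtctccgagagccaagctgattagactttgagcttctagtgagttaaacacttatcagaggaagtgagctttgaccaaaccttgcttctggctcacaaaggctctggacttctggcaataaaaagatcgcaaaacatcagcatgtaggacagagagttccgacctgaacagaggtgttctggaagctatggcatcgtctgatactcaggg
Haao: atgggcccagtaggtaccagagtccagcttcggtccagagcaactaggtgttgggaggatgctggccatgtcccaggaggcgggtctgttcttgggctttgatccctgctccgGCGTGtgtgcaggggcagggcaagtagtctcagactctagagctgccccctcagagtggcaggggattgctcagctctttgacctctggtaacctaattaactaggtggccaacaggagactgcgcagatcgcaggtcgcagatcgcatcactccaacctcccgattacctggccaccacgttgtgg
The capitals mark a GCGTG, the core read by the aryl hydrocarbon receptor. It begins 137 bases before the start used for this window (position -137). The RefSeq span of Haao is chr17:83831348-83848981, so the whole window lies inside the gene and its start is not the outer end of that span. Windows of 4 of the 8 enzymes (Afmid, Kmo, Haao and Il4i1) were searched on both strands for 3 motifs, and the Haao match was the only one. The motifs had been shortened after a first search with longer ones found no match in the interferon element. GCGTG is held by 32.4% of all 32851 windows, the interferon-stimulated response element core GAAANNGAA by 8.56% and the interferon gamma activation site TTCNNNGAA by 8.30%. A match is a description of the letters and not a binding site.

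The deposited arrays were unequal in brightness and were set to 1 distribution before the test. After this normalization the log2 signals of the CD8α+ arrays correlated at r = 0.955 across tested probe sets, those of the CD8α− arrays at 0.835, and pairs across the populations at 0.788 to 0.871. CD8α− replicate 2 was the dimmest array as deposited, and its ratio of 3′ to 5′ Gapdh control signal was 10.7, against 1.53 to 2.02 on the other 3 arrays. Its Actb ratio went the other way, at 0.759 against 1.62 to 1.69. What this array's RNA contributes to each result was not tested. Values without it are given below for Afmid, Kmo and Haao. For Ido1, Kynu and Arg2 the log2 difference without it, CD8α+ minus CD8α−, was 0.18, -0.76 and -1.03. For single genes of the lists and for markers no value without it is given. Cd8a itself was brighter in the CD8α+ arrays by at least 69.4-fold. Of the cDC1 markers, which define the CD8α+ lineage, 8 of 9, Cd8a included, were higher at an unadjusted limma p under 0.05. The other, Batf3, read lower in both CD8α+ arrays, with a log2 difference of -0.27 ± 0.32. Of the tested cDC2 markers, which define most CD8α− cells, 5 of 6 were lower. Among all genes tested 7.13% were higher and 8.82% lower. In a gene measured on bulk RNA, fewer cells that express it and less RNA per cell cannot be told apart.

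No enzyme differed between the populations past the adjusted threshold of 0.05, and neither did any other probe set of the arrays: 0 of 22519 tested passed (0%), with a lowest adjusted p of 0.115. At an unadjusted p under 0.05, 0 of the 9 tested probe sets of the enzymes were called, where 15.5% of all tested probe sets (3500) were. Arg2 and Kmo read lower in both CD8α+ arrays than in either CD8α− array, Afmid read higher in both on its brightest probe set, and Ido1, Kynu and Haao overlapped. Groups that do not overlap were common in these arrays, at 52.3% of all tested probe sets, 26.1% with CD8α+ higher and 26.2% with CD8α+ lower. Among the tested probe sets of the enzymes they made up 3 of 9, 1 higher and 2 lower. By gene the median log2 difference, CD8α+ minus CD8α−, was -0.07 over the 6 enzymes tested, with 3 higher and 3 lower, beside -0.02 over all 10532 genes tested. Signals below are normalized linear signals in the order replicate 1 and 2 unless said to be deposited ones. Differences are on the log2 scale, CD8α+ minus CD8α−, ± the standard error of the limma fit.

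**Figure D1:**
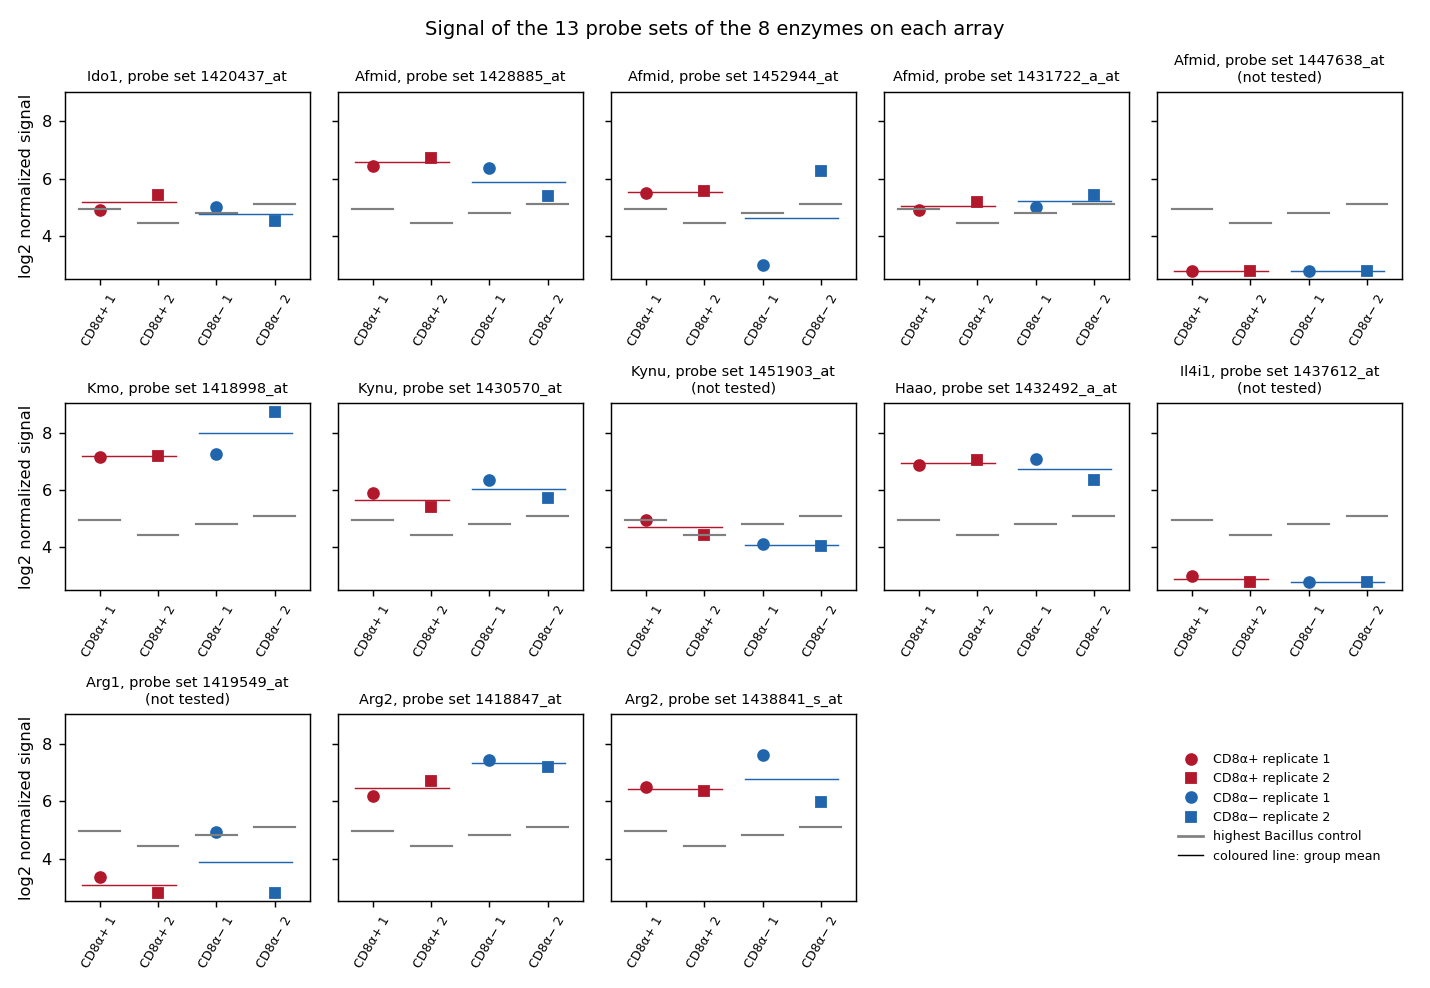
Log2 normalized signal, raised to the floor, of the 13 probe sets of the 8 enzymes on each array, with CD8α+ arrays left of CD8α− arrays, group means as coloured lines and the background of each array as grey ones. Kmo on CD8α− replicate 2 (8.72) stands above the other 3 Kmo signals, and the Il4i1 probe set lies under background on all 4 arrays.

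Ido1, the first and rate-limiting enzyme of the pathway outside the liver, was read near background in both populations. Its signal was 30.5 and 43.8 in CD8α+ cells, against 32.6 and 23.3 in CD8α− cells. It exceeded background, taken as the brightest Bacillus control of the same array, on 1 of 2 arrays in each population. The CD8α+ signals reached higher, but CD8α− replicate 1 lay between them, so the groups overlapped. The difference was 0.41 ± 0.38, with a 95% interval from -0.62 to 1.43 and a limma adjusted p of 0.623. Scaling the arrays to a common trimmed mean in place of the normalization turned its direction, to -0.27. An excess of Ido1 message in CD8α+ cells of up to 1.43 on the log2 scale, or a deficit of up to 0.62, is within the interval, and neither was detectable with these arrays.

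Afmid, the formamidase of the second step, was read by 4 probe sets that did not give 1 pattern. On the brightest, 1428885_at, the signal was 88.1 and 106.9 in CD8α+ cells, against 83.9 and 42.7 in CD8α− cells. Both CD8α+ arrays were above both CD8α− arrays there, but CD8α− replicate 1 was close to them, and the difference of 0.70 ± 0.45 (95% interval -0.51 to 1.91) had a limma adjusted p of 0.492. Without CD8α− replicate 2 it was 0.22 ± 0.23, and without CD8α− replicate 1, with the remaining CD8α− array assumed to vary like the CD8α+ arrays, it was 1.26 ± 0.23 (limma adjusted p = 0.0636, with 0.0636 to 0.9995 across alternatives). Probe set 1452944_at is annotated from the same transcript record, and read 45.8 and 47.6 in CD8α+ cells, against 8.03 and 78.1 in CD8α− cells. It placed the CD8α− arrays in the opposite order, with 1 below and 1 above the CD8α+ arrays, and gave 0.90 ± 1.14. Probe set 1431722_a_at read 30.2 and 36.9 in CD8α+ cells, against 32.6 and 43.1 in CD8α− cells, an overlap with a difference of -0.17 ± 0.35. The remaining probe set, 1447638_at, was at the floor of 6.99 on all 4 arrays and was not tested.

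Kmo, the enzyme that commits kynurenine to the branch leading to quinolinate, was above background on all 4 arrays. It read 143.1 and 144.2 in CD8α+ cells, against 153.8 and 422.6 in CD8α− cells. The CD8α+ arrays and CD8α− replicate 1 lay close together, and CD8α− replicate 2 stood far above them. The difference was -0.83 ± 0.57, with a 95% interval from -2.36 to 0.70 and a limma adjusted p of 0.515. It rested on CD8α− replicate 2: without that array it was -0.10 ± 0.17, and without CD8α− replicate 1 it was -1.57 ± 0.17 (limma adjusted p = 0.0441, with 0.0441 to 0.9995 across alternatives). In the last of these CD8α− replicate 2 stood alone and was assumed to vary like the CD8α+ arrays, the only source of the spread, which differed little from each other. Under that setting 15.7% of all tested probe sets (3543 of 22519) passed, so nothing is read from the Kmo call. As deposited the signals were 188.8 and 202.2 in CD8α+ cells, against 164.8 and 198.4 in CD8α− cells. On that scale the arrays overlap and the difference was 0.11, where the median over all probe sets was itself 0.63.

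Kynu, which cleaves kynurenine and hydroxykynurenine, read 59.97 and 42.5 in CD8α+ cells, against 82.2 and 52.3 in CD8α− cells, on probe set 1430570_at. The arrays of the populations were interleaved, and the difference was -0.38 ± 0.41 (95% interval -1.46 to 0.71, limma adjusted p = 0.669). The other probe set, 1451903_at, read 31.4 and 21.5 in CD8α+ cells, against 17.4 and 16.7 in CD8α− cells, the opposite order with no overlap. Its mean of 21.8 fell just under the 23.0 required for the test, and 1 of its 4 signals, on CD8α+ replicate 1, was above background.

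Haao, the last enzyme of the 5 along the pathway, read 116.8 and 131.9 in CD8α+ cells, against 136.4 and 81.7 in CD8α− cells. The CD8α− arrays lay on either side of the CD8α+ arrays, all 4 above background. The difference was 0.23 ± 0.40, with a 95% interval from -0.82 to 1.29 and a limma adjusted p of 0.789, and it turned to -0.14 without CD8α− replicate 2. Among tested probe sets of all genes, 76.3% had a larger difference in either direction.

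**Figure D2:**
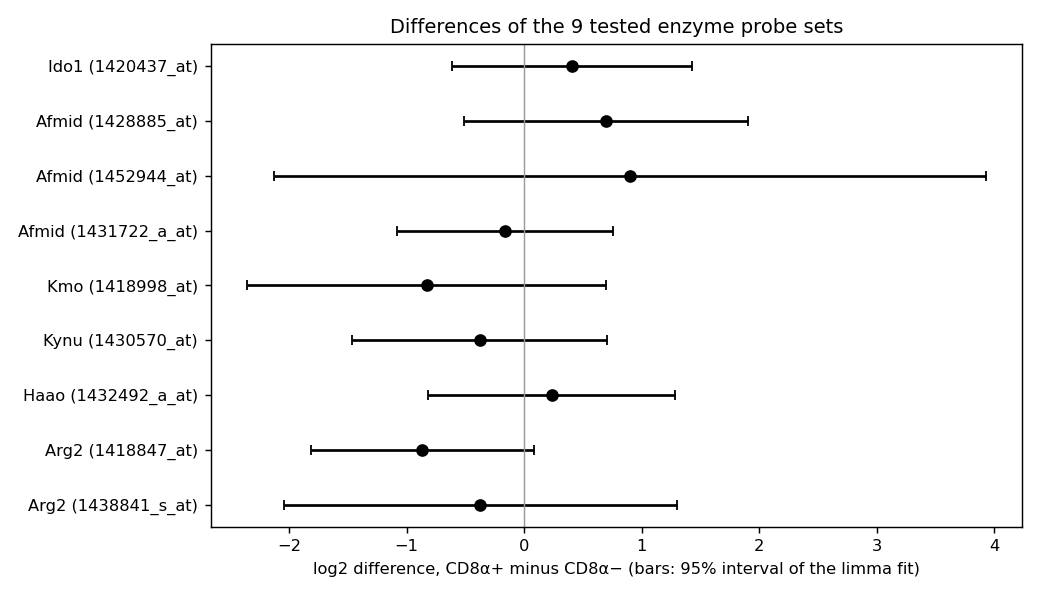
Log2 difference, CD8α+ minus CD8α−, of the 9 tested probe sets of the enzymes, as points with 95% intervals. Every interval includes 0, and the widest is that of Afmid 1452944_at, from -2.13 to 3.93.

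Il4i1, the aromatic amino acid oxidase, had 1 probe set of its own, and it carried no signal above background on any array. Its deposited signals were 9.0 and 1.8 in CD8α+ cells, against 5.1 and 2.2 in CD8α− cells, so it gives no level in either population. A further probe set, 1419192_at, is annotated to both Il4i1 and Il4i1b, 2 genes that overlap in RefSeq, and lies outside the choice by a single symbol. It read 96.7 and 121.0 in CD8α+ cells, against 474.4 and 308.3 in CD8α− cells, above background on 4 of 4 arrays. Both CD8α− arrays were well above both CD8α+ arrays on this shared probe set. The difference was -1.82 ± 0.38, or 3.54-fold, with a 95% interval from -2.84 to -0.80, an unadjusted limma p of 0.00670 and an adjusted p of 0.179. It stood at rank 838 of 22519 tested probe sets by p. Over the alternatives it ran from -2.19 to -0.92 with an adjusted p from 0.0569 to 0.999. As deposited, 122.2 and 164.9 in CD8α+ cells stood against 500.7 and 145.0 in CD8α− cells, so on that scale the groups overlapped. Which of the 2 genes the signal comes from cannot be told apart with this probe set.

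Arg1, the cytosolic arginase, was at or under background on 3 of 4 arrays. Its normalized signal was 10.3 and 5.64 in CD8α+ cells, against 30.5 and 1.86 in CD8α− cells, and CD8α− replicate 1 alone exceeded background. The CD8α− arrays were the brightest and the dimmest of the 4, and the probe set was too dim to be tested.

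Arg2, the mitochondrial arginase, was above background in both populations. On probe set 1418847_at it read 72.7 and 104.5 in CD8α+ cells, against 171.6 and 147.2 in CD8α− cells. Both CD8α− arrays were above both CD8α+ arrays. The difference was -0.87 ± 0.36, with a 95% interval from -1.82 to 0.09, an unadjusted limma p of 0.0657 and an adjusted p of 0.350. A difference of this size or more was common, since 31.4% of tested probe sets exceeded it. The other Arg2 probe set, 1438841_s_at, read 89.0 and 81.7 in CD8α+ cells, against 195.3 and 62.4 in CD8α− cells. There CD8α− replicate 2 was the dimmest of the 4 arrays, the groups overlapped, and the difference was -0.37 ± 0.63 (limma adjusted p = 0.787). The mean of both probe sets gave -0.62 ± 0.41. On the deposited scale the difference of 1418847_at was -0.07, beside a median of 0.63 over all probe sets. Its deposited signals were 88.7 and 138.8 in CD8α+ cells, against 183.5 and 73.7 in CD8α− cells, so there the groups overlapped.

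**Figure D3:**
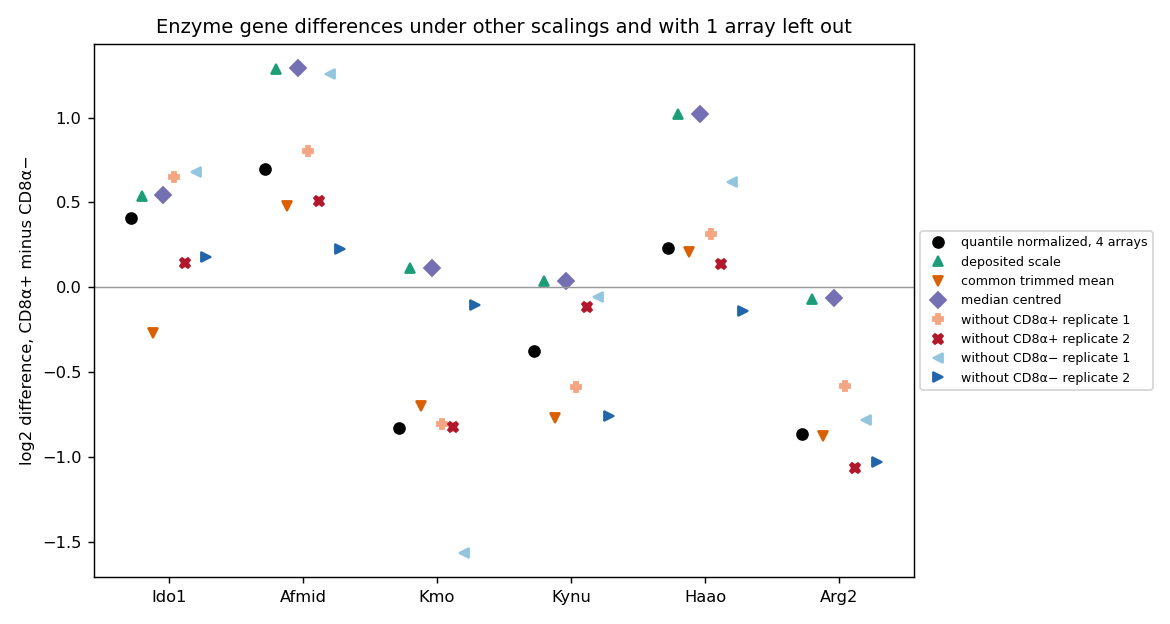
Log2 difference, CD8α+ minus CD8α−, of the 6 tested enzymes as reported, under 3 other scalings and with each array left out. Arg2 and Afmid kept 1 sign in these settings, while Ido1, Kmo, Kynu and Haao crossed 0 in at least 1 of them. Arg2 came near 0, at -0.07 on the deposited scale and with medians centred.

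Genes with the profile closest to Kmo over the 4 arrays, measured as the Euclidean distance between log2 profiles centred on their own mean among 10532 tested genes, were Xrn2 (0.070), Cd209d (0.089), Clk3 (0.125), Lims1 (0.133) and AI837181 (0.140). All 5 were brightest on CD8α− replicate 2, the array on which Kmo was brightest. Those closest to Arg2 were Zcchc12 (0.030), Pomt2 (0.038), Itpr2 (0.051), Piwil2 (0.071) and 1700007E05Rik (0.082), all brightest on CD8α− replicate 1 as Arg2 was. With 4 arrays such nearness is a description of the profiles, and the shared brightest array follows from choosing the genes by this distance.

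Genes around the 8 enzymes (113 measured in 11 lists, 76 tested) gave 0 calls after adjustment (0% of all genes tested). At an unadjusted limma p under 0.05, 6 were higher in CD8α+ cells and 9 lower, 19.7% of those tested, where 16.0% of all genes tested were called, 7.13% higher and 8.82% lower. The other 61 were not called, and the median difference of the 76 was -0.16, beside -0.02 over all genes tested. The share called was near that of all genes. Of the 9 called lower, 3 (Tdo2, Maoa and Otc) were above background on CD8α− replicate 1 alone and passed the filter on dim probe sets through that array. Nos3, called higher, and Ifng, called lower, passed the filter through the population where they were brighter, and were above background only there. The split between directions moved with the scaling, to 11 higher and 2 lower on the deposited scale and 23 higher and 3 lower with the arrays centred on their medians, where the median of all probe sets was 0.63 and 0.65.

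Along the rest of the kynurenine and NAD pathway 5 of 13 measured genes were tested, with 0 higher and 1 lower at the unadjusted threshold. Tdo2, the tryptophan dioxygenase of liver, was the lower one (limma adjusted p = 0.317). It read 6.92 and 16.0 in CD8α+ cells, against 67.0 and 23.6 in CD8α− cells, and only CD8α− replicate 1 was above background, so no size is given. Got2, a transaminase that can also act on kynurenine, read 1326 and 1317 in CD8α+ cells, against 540.5 and 900.4 in CD8α− cells. Both CD8α+ arrays were higher, with a difference of 0.92 ± 0.39 and an adjusted p of 0.357. Nampt, which makes NAD from nicotinamide and not from tryptophan, gave 0.67 ± 0.41.

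Among the genes of other tryptophan use 3 of 8 were tested, and Maoa, which degrades serotonin, was called lower at the unadjusted threshold (limma adjusted p = 0.284). It read 5.71 and 17.2 in CD8α+ cells, against 62.9 and 28.7 in CD8α− cells, and again only CD8α− replicate 1 was above background, so no size is given. The tryptophanyl tRNA synthetases Wars and Wars2 gave -0.33 and -0.61. Of the tryptophan and kynurenine transporters 0 of 6 tested were called, and Slc7a5, the large neutral amino acid carrier, read 238.1 and 236.7 in CD8α+ cells, against 145.2 and 301.4 in CD8α− cells. Its partner chain Slc3a2 gave -0.49 and the glutamine carrier Slc1a5 -0.10.

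Of the genes through which kynurenines are sensed 5 of 8 were tested, with 0 higher and 1 lower. Gpr35, a receptor for which kynurenic acid is a ligand, read 371.8 and 369.8 in CD8α+ cells, against 767.3 and 639.0 in CD8α− cells. Both CD8α− arrays were higher, with a difference of -0.92 ± 0.32 and a limma adjusted p of 0.293. Ahr, the aryl hydrocarbon receptor, read 2528 and 2549 in CD8α+ cells, against 1494 and 2178 in CD8α− cells. The groups did not overlap, and the difference was 0.49 ± 0.35 (adjusted p = 0.525). Its partner Arnt gave 0.28 and its target Tiparp 0.26.

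Around arginine, 9 of 16 measured enzymes were tested, with 3 higher and 1 lower. Aldh18a1, which starts proline and ornithine synthesis from glutamate, read 122.1 and 140.6 in CD8α+ cells, against 42.3 and 29.8 in CD8α− cells, a difference of 1.88 ± 0.35 (limma adjusted p = 0.158). Gatm, which uses arginine in creatine synthesis, read 146.3 and 128.1 in CD8α+ cells, against 47.0 and 44.6 in CD8α− cells, a difference of 1.58 ± 0.31 (limma adjusted p = 0.168). In both genes the CD8α+ arrays lay well above the CD8α− arrays, of which 1 of 2 was above background for Aldh18a1 and 2 of 2 for Gatm. Nos3, a nitric oxide synthase that competes for arginine, read 38.3 and 27.2 in CD8α+ cells, against 18.3 and 14.3 in CD8α− cells, neither of these above background, which sets the excess at 1.03-fold or more. Otc, a urea cycle enzyme of liver and gut, was called lower (limma adjusted p = 0.190), but read 8.07 and 9.36 in CD8α+ cells, against 52.1 and 25.8 in CD8α− cells, with CD8α− replicate 1 alone above background, so no size is given.

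Polyamines are made from the ornithine that arginases release, and all 9 measured genes of that list were tested, with 2 higher and 0 lower. Srm, the spermidine synthase, read 133.5 and 141.4 in CD8α+ cells, against 51.9 and 30.3 in CD8α− cells, a difference of 1.79 ± 0.40 (limma adjusted p = 0.191). Odc1, the rate-limiting ornithine decarboxylase, read 2605 and 2661 in CD8α+ cells, against 1618 and 890.5 in CD8α− cells, a difference of 1.13 ± 0.42 (limma adjusted p = 0.315). In both of these synthetic enzymes the CD8α+ arrays were the higher, and 1 of 2 CD8α− arrays was above background for Srm. Sat1, which marks polyamines for export and breakdown, gave -0.90 ± 0.35, and the median of the list was -0.06. Of the cationic amino acid transporters 0 of 4 tested were called, with Slc7a1 at -0.65, Slc7a6 at 0.01 and Slc7a7 at 0.30.

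Of the genes that sense amino acid starvation 0 of 8 tested were called. Atf4, the transcription factor of this response, gave -0.17 ± 0.61, its target Ddit3 -0.85 ± 0.32, and Ppp1r15a, which restores translation afterwards, -0.82 ± 0.44. Of the aromatic and of the branched-chain and other amino acid lists, 0 of 3 and 0 of 9 tested genes were called.

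Among 15 tested regulators of Ido1, 1 was higher and 5 were lower at the unadjusted threshold, with a median of -0.32. Ifng, the cytokine that induces Ido1, read 12.2 and 5.64 in CD8α+ cells, against 115.4 and 115.6 in CD8α− cells, at least 4.45-fold lower in CD8α+ cells, where neither array was above background (limma adjusted p = 0.115). Irf8, a factor that is also a cDC1 marker, read 1379 and 1478 in CD8α+ cells, against 555.0 and 392.0 in CD8α− cells, a difference of 1.61 ± 0.35 (limma adjusted p = 0.186). Socs3, which in mice is known to drive Ido1 protein to degradation, read 89.0 and 108.0 in CD8α+ cells, against 271.1 and 554.2 in CD8α− cells, a difference of -1.98 ± 0.47 (limma adjusted p = 0.202). Tyrobp, the adaptor DAP12, gave -1.003 ± 0.321. Bin1 (-0.98) and Ifngr1 (-0.88) were also called lower. Jak2, Cd86 and Cd80, the brightest regulators not called, gave -0.07, -0.05 and 0.32. Thus the 4 regulators with the smallest p were lower Ifng, Socs3 and Tyrobp and higher Irf8 in CD8α+ cells. None of it passed adjustment, beside an Ido1 signal near background in both populations.

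**Figure D4:**
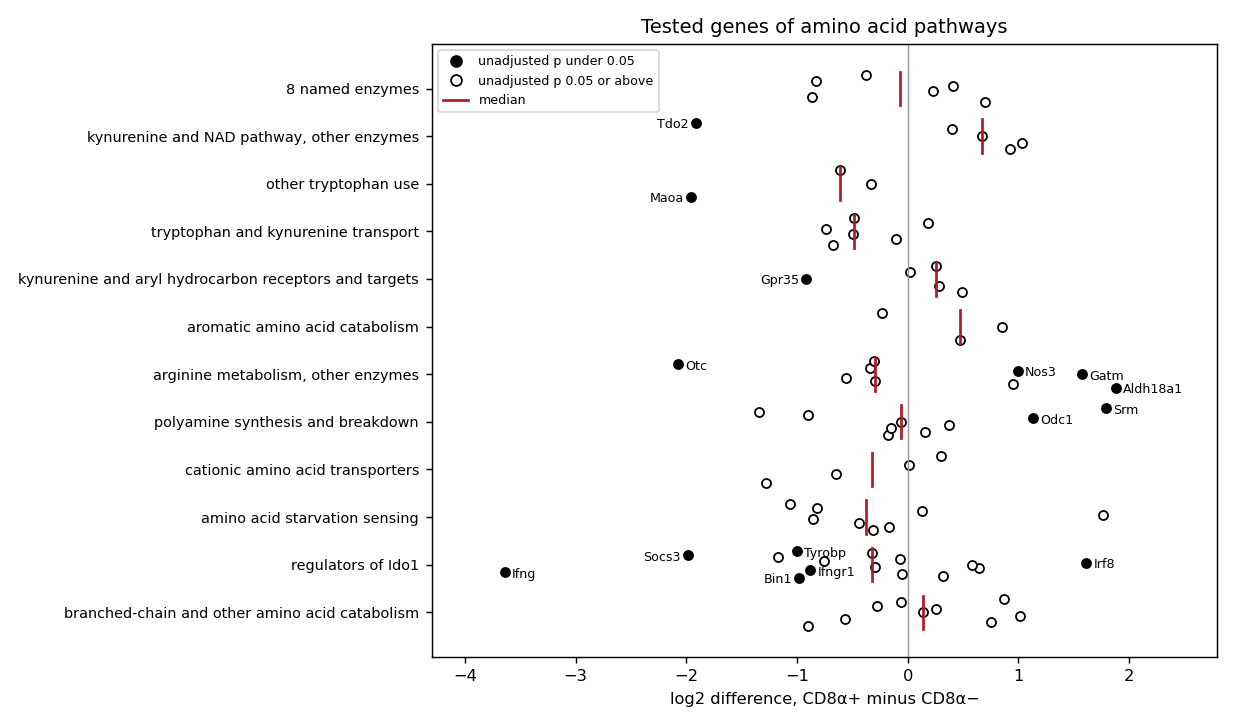
Log2 difference, CD8α+ minus CD8α−, of each tested gene of the 8 enzymes and the 11 lists around them, filled where the unadjusted limma p is under 0.05, with the median of each list as a line. The 6 enzymes tested hold no filled point, and Ifng lies lowest at -3.64.

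Summed marker signal of macrophages, monocytes, neutrophils, NK cells, B cells and plasmacytoid dendritic cells was higher in both CD8α− arrays. That is the side where the shared Il4i1 probe set, Arg2 on the brighter of its probe sets and Kmo, through CD8α− replicate 2, were brighter after normalization. The T cell sums overlapped, and the mature dendritic cell sums were higher in both CD8α+ arrays. Summed macrophage marker signal was 1686 and 1723 in CD8α+ cells, against 2661 and 4120 in CD8α− cells, with 4 of 7 tested markers lower in CD8α+ cells and 1, Vcam1, higher (2.48) at the unadjusted threshold. Marco and C1qc, 2 of the 12 measured, were not above background on any array. Monocyte marker signal summed to 3159 and 3258 in CD8α+ cells, against 6059 and 7939 in CD8α− cells, with 1 of 5 tested lower. That 1 was Csf1r, which is also counted among the cDC2 markers. Itgam, also in both lists, was not above background on any array. Neutrophil marker signal summed to 6936 and 7573 in CD8α+ cells, against 14468 and 11767 in CD8α− cells, with 4 of 5 lower and Elane not above background on any array. NK cell marker signal summed to 700.2 and 844.1 in CD8α+ cells, against 2357 and 1340 in CD8α− cells, with 3 of 7 lower, on the side where Ifng was brighter. For mature dendritic cells, which are known to express Il4i1, the sums were 7558 and 7840 in CD8α+ cells, against 6891 and 6794 in CD8α− cells. The median difference of the 7 tested markers was -0.24, the other way from the sums. At the unadjusted threshold 2 were higher and 1 lower in CD8α+ cells. T cell marker signal summed to 473.9 and 702.5 in CD8α+ cells, against 588.8 and 591.4 in CD8α− cells. B cell marker signal summed to 1101 and 1163 in CD8α+ cells, against 2259 and 2950 in CD8α− cells, with 1 of 4 tested higher and 2 lower in CD8α+ cells. Plasmacytoid marker signal summed to 1065 and 1221 in CD8α+ cells, against 1785 and 2558 in CD8α− cells. Of 7 tested, 0 were higher and 2, Tcf4 (-1.06) and Spib (-2.05), lower. Tcf4 alone read 649.7 and 762.1 in CD8α+ cells, against 1198 and 1808 in CD8α− cells. Bst2 (-0.77) and Klk1 (-1.34) also leaned lower, while Ccr9 (2.21 ± 1.12), Siglech (0.66) and Ly6d (0.05) leaned higher, the other way from the sums. The part of these cells in the differences was not tested.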

How the data were processed

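The authors deposited 1 linear intensity per probe set and array, named MAS5 in the submitters' processing notes. The series' design text names mRNA purification and labelled cDNA, while the labels' protocols name labelled cRNA from total RNA. Which was used is not settled here, nor is the scaling target. The 4 arrays (2 per group, by the labels) differed in scale, with trimmed means of 124 and 127 for CD8α+ and 106 and 48.7 for CD8α−. Log2 signals were quantile normalized and raised to a floor of 6.99 (25th percentile). Probe sets were tested where the mean signal reached the median of 22.97 (22519 of the 45037 other than controls). The fit was limma 3.58.1 in R 4.3.3 with Benjamini-Hochberg adjustment over all tested probe sets, tested on simulated data. It had 2 residual degrees of freedom, so the number of arrays limits the precision. No exact permutation test of 2 against 2 can go below 0.333. Background was the brightest of 27 Bacillus control probe sets per array. For a group with no array above it, folds are "at least", the brighter mean over the higher of background and own signal. Probe sets were named by the platform annotation (34945 with 1 symbol, 932 with several, 9160 with none), and a gene stands by its brightest tested probe set.

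The enzymes, gene lists and tests were chosen with earlier results of these data known. Named genes are the 8 enzymes on every probe set and the 5 nearest in profile to Kmo and to Arg2. From the lists they are up to 4 genes a list by smallest unadjusted p under 0.05 and up to 3 others by signal. Bin1 and Ifngr1 are named beyond these. The shared Il4i1 probe set was added after its values were seen. At the unadjusted threshold and in CD8α+ cells, 0 were higher and 2 lower of 7 tested plasmacytoid markers, and 2 and 1 of 7 mature dendritic cell markers. The same counts were 0 and 1 of 6 T cell markers, 1 and 2 of 4 B cell markers and 0 of 2 erythroid markers. Alternatives changed the scaling, floor, filter, variance trend, probe set choice, replicate block and each array in turn.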

Additional observations from a re-analysis of the deposited data

Results flagged for a closer look

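The probe set annotated to both Il4i1 and Il4i1b lies outside the choice of enzymes by a single symbol and carried signal above background on all 4 arrays, while the Il4i1 probe set did so on none. Its log2 difference, CD8α+ minus CD8α−, was -1.82 ± 0.38, with a limma adjusted p of 0.179.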

How the results depend on the processing

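No enzyme passed adjustment in any setting except Kmo without CD8α− replicate 1 (-1.57), where 3543 probe sets passed. Directions turned for Haao without CD8α− replicate 2 (-0.14), Ido1 scaled to a common trimmed mean (-0.27), and Kmo and Kynu on the deposited scale (0.112 and 0.0373) and with medians centred (0.114 and 0.0392). These scalings moved the median of all probe sets to -0.21, 0.63 and 0.65. Leaving out each array gave 0.14 to 0.68 for Ido1, 0.22 to 1.26 for Afmid, -1.57 to -0.10 for Kmo, -0.76 to -0.06 for Kynu, -0.14 to 0.62 for Haao and -1.07 to -0.58 for Arg2. Probe sets past adjustment (0 in the main processing, 3500 at an unadjusted p under 0.05) numbered 406 with medians centred, 60 with a variance trend, and 0 to 3543 leaving out arrays. Probe sets higher at an unadjusted p (1746) became 6018 with medians centred, 3256 without a filter and 360 to 5516 leaving out arrays. Those lower (1754) became 454 on the deposited scale, 3784 at a common trimmed mean, 855 with medians centred, 3299 without a filter and 819 to 4390 leaving out arrays. List genes higher (6) became 11 on the deposited scale, 23 with medians centred and 0 to 19 leaving out arrays, and those lower (9) became 2, 3 and 2 to 18, and 15 without a filter. The cause was not tested.

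With the replicate number as a block, 14 probe sets passed adjustment and no enzyme's call changed (Arg2 -0.87, adjusted p = 0.441). Deviations of same-numbered arrays correlated at 0.031. With 2 arrays per group this cannot show whether a number marks a shared animal or batch, and the labels do not say. The stricter filter left Ido1 untested, and the identity of the arginase proteins was not run. With 2 arrays per group, Ido1, Arg1 and the single-symbol Il4i1 probe set near background and CD8α− arrays less alike than CD8α+ arrays, the precision is low.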
